A study of Caenorhabditis elegans with 55 samples.

Results

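Small RNAs that lie antisense to transposons were followed through 10 Argonaute immunoprecipitations (IPs) in Caenorhabditis elegans. The members were every row classed as antisense to a transposable element in the small RNA tables, 285 of the 70241 features that appear in any table. Of these, 259 were listed in every table. By their names, 166 were single annotated copies with a WBTransposon ID and 119 were named families or repeats, such as Tc1, CER1 or PALTA3_CE.

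Transposons are mobile DNA sequences, and worms hold them silent with small RNAs that pair with transposon transcripts. RNA-dependent RNA polymerases copy a target transcript into short antisense RNAs, and Argonaute proteins bind these and act on the matching RNA. The mutator genes and the WAGO branch of Argonautes carry most of this silencing in the germline, whereas CSR-1 is best known for binding small RNAs against expressed germline genes. CSR-1a and CSR-1b are isoforms that differ at the N terminus. ALG-3 and ALG-4 act in spermatogenesis, and WAGO-4 is known for the inheritance of silencing. Tc1, Tc3 and Tc5 are DNA transposons, CER1 and the BEL elements are LTR retrotransposons that copy themselves through RNA, and Helitrons are DNA transposons without terminal inverted repeats.

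All worms were whole L4 larvae, the last larval stage, grown at 20 °C, and each strain gave 2 IP libraries and 2 input libraries made from the lysates used for the IPs. JMC101 carries csr-1 with the tor67 gfp::3xflag tag and was used for total CSR-1. JMC151 carries the tor160 allele, with gfp::3xflag in exon 1 of csr-1, and was used for CSR-1a. JMC164 carries a gfp::3xflag tag in exon 2 of csr-1 together with mg660, a G120* stop change, and was used for CSR-1b. JMC205 and JMC207 carry gfp::3xflag on alg-3 (tor141) and on alg-4 (tor143). JMC223 carries gfp::3xflag on wago-4 (tor117), and JMC248 carries 3xflag on wago-10 (tor162). GR3039 carries the G91R change of csr-1 (mg657), and its IP is labelled CSR-1a. JMC161 is unc-119(ed3) with csr-1(tm892) and the transgene mgTi11, in which rpl-28 drives csr-1a with gfp in exon 1. Its title says CSR-1 and its table column says CSR-1a. GR3035 carries the mgIs75[rpn-2::gfp] and mgTi14[pbs-5::mcherry] transgenes, and its IP is labelled CSR-1a. The background of all 10 strains is given as N2, the laboratory wild type.

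The labels give GFP beads for every IP, although by genotype the Argonaute carries no GFP in GR3035, GR3039 and JMC248, and the protocol also names an antibody to CSR-1a. The tables hold no protein level, so recovery of each labelled Argonaute was not tested. The RNA was treated with a 5′ polyphosphatase before library construction, which lets small RNAs with a 5′ triphosphate be ligated. Values are RPM as deposited, a scale that sets every library to the same total. The total of each library was worked out from its most frequent value above 0 among protein-coding features, taken as 1 read. These estimates ran from 1546971 to 29178965 reads in the IPs and from 325376 to 30284492 reads in the inputs, and those antisense to transposons from 26471 to 431672 in the IPs and from 16163 to 1512042 in the inputs. One read was worth 0.0343 to 0.646 RPM in the IPs and 0.0330 to 3.07 RPM in the inputs. The shallowest library was replicate 2 of the JMC223 inputs. Within a table, 2 to 19 members had exactly the same values as another member in all 4 libraries, and among member values of at most 20 reads only 32.9 to 57.9% were whole reads within 0.02 reads. Values of single copies that share sequence are therefore uncertain, because reads may have been divided among copies. No member sequence was in the files used, so elements are described by name and value.

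In the inputs, antisense transposon reads were concentrated in few members. In every input 9 to 12 members held the upper 50% of these reads, and the top 10 of each library held 47.3 to 55.1%. The most abundant was WBTransposon00000216, with a mean of 5308 ± 852 RPM over the 20 inputs (SD, n = 20), followed by WBTransposon00000708 with 3362 RPM. The DNA transposons Tc3, Tc5 and Tc1 followed with means of 2403, 2287 and 2069.9 RPM, and WBTransposon00000275, WBTransposon00000618, WBTransposon00000648 and WBTransposon00000639 had 2279.6, 2089.8, 1710.4 and 1403 RPM. BEL-like came last of the 10, with 1346 ± 1537 RPM (SD, n = 20), and it was the least even of the 10. Its inputs ran from 510.2 RPM in JMC161 to 7636 RPM in replicate 1 of JMC223, around a median of 977 RPM. These levels are not per length, and each strain's table was scaled by itself. Copies with a WBTransposon ID together held 46.5 to 61.9% of the antisense transposon reads in the mean of a strain's inputs, Tc families 20.1 to 29.96% and LTR retrotransposons 1.66 to 8.35%.

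The share of all reads that lay antisense to transposons was lower in the IPs than in the inputs of all 10 strains. It ran from 0.631 to 3.11% over the 20 IPs with a median of 1.36%, and from 3.91 to 6.83% over the 20 inputs with a median of 4.93%, so that the sets of libraries did not overlap. With 2 libraries against 2 within a strain, an exact permutation test cannot pass 0.05, and no p is given for the shares.

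The spermatogenesis Argonautes had the lowest shares. In the ALG-4 strain JMC207 the share was 0.631 and 0.641% in the IPs, against 4.95 and 4.63% in the inputs, and in the ALG-3 strain JMC205 it was 0.689 and 0.701% in the IPs, against 4.95 and 4.99% in the inputs. The input mean was 7.53 times the IP mean for ALG-4 and 7.15 times for ALG-3. Total CSR-1 and CSR-1b were next, with JMC101 at 0.829 and 0.823% in the IPs, against 4.90 and 4.67% in the inputs, and JMC164 at 1.02 and 0.810% in the IPs, against 5.38 and 4.68% in the inputs. For these strains the ratio of input to IP was 5.79 and 5.50. The transgenic JMC161 had 0.926 and 0.966% in the IPs, against 3.91 and 4.55% in the inputs, a ratio of 4.47.

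The CSR-1a IPs other than that of JMC161 kept more. JMC151 had 2.16 and 1.69% in the IPs, against 6.83 and 4.12% in the inputs, and GR3035 had 1.73 and 2.24% in the IPs, against 5.49 and 5.57% in the inputs, ratios of 2.84 and 2.79. In GR3039, with the G91R change, the share was 2.40 and 2.31% in the IPs, against 4.91 and 4.24% in the inputs, a ratio of 1.94. WAGO-10 in JMC248 had 2.64 and 2.19% in the IPs, against 4.43 and 4.998% in the inputs, and WAGO-4 in JMC223 had 3.07 and 3.11% in the IPs, against 5.57 and 4.97% in the inputs, where the ratio was lowest at 1.70. The spread between the 2 inputs of JMC151, an SD of 1.91 percentage points around 5.47%, was the widest of any pair, and the JMC151 difference of -3.55 percentage points ran from -4.90 to -2.19 when 1 library was left out. The plot of shares by library shows all 10 strains.

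**Figure D1:**
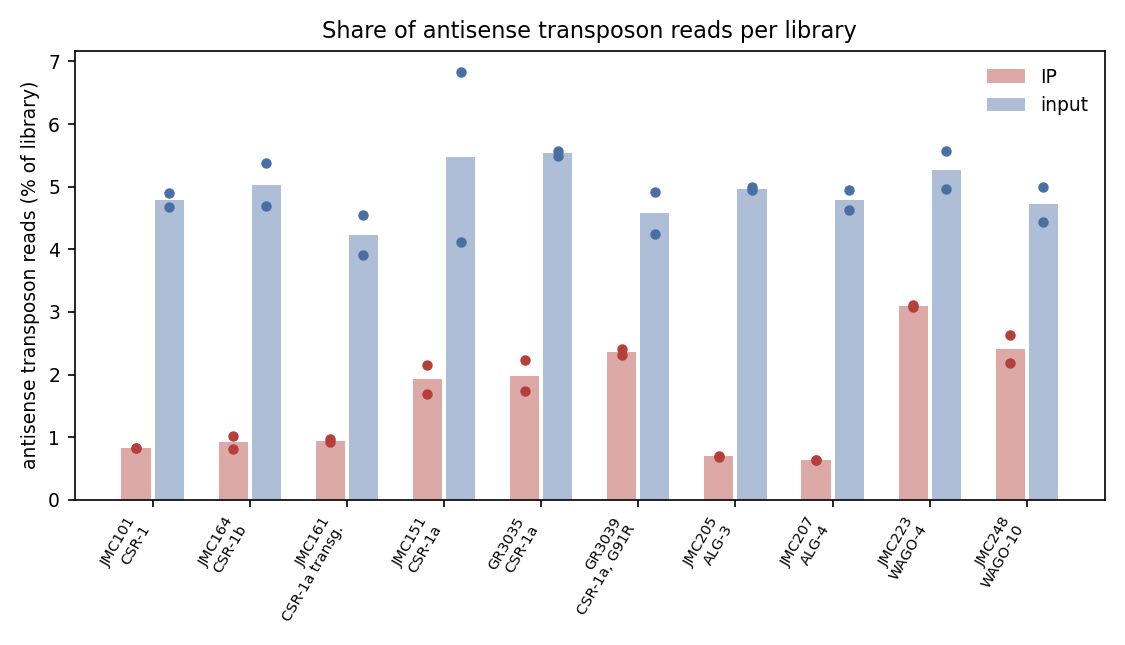
Share of each library's reads that lies antisense to transposons (percent, y axis) in 10 strains (x axis), with IPs left and inputs right. Bars are means of 2 libraries and points the libraries, and all 20 IP points, 0.631 to 3.11%, lie below all 20 input points, 3.91 to 6.83%.

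A share is relative to the other reads of the same library. Antisense reads to protein-coding genes made up more of the IPs than of the inputs by 57.9 percentage points in JMC101, 50.5 in JMC164, 44.4 in JMC161 and 56.7 in JMC223. In JMC205 the same difference was -0.976, and in JMC207 it was 15.2. MicroRNAs, which are encoded hairpin products and not copied from targets, made up 55.04% of the JMC205 IPs, against 30.8% of the JMC205 inputs, and 40.1% of the JMC207 IPs, against 29% of the JMC207 inputs. Antisense pseudogene reads fell by 3.42 percentage points in JMC205, whereas in JMC151 they made up 5.58 percentage points more of the IPs than of the inputs. The part of these other classes in the transposon share was not tested.

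The IPs were then compared with their inputs element by element on log2(RPM + 1), with limma fitted across all features of a table that had at least 10 estimated reads in at least 2 libraries. An element was called enriched or depleted at a Benjamini-Hochberg adjusted p under 0.05 and a log2 difference of at least 1 in size. All element differences below are IP minus input on this scale, with n = 2 libraries each, and the scale understates the change of elements near 1 RPM. Nothing in the labels says that the 2 libraries of a group came from separate cultures, so the p-values measure only a spread between libraries, which may be technical. That spread is not the element's own alone. In limma each element's error is drawn toward a trend over all features of the fit, so every SE and p rests at least in part on other features. In JMC151, BEL-like, HELICOPY3 and WBTransposon00000712 below have the same SE although their replicates differ in spread. Their SE and p there come from the other features and do not measure the spread of each element. The filter passed 138 to 210 members per strain. In all, 218 of the 285 members were tested in at least 1 IP, 126 in all 10 and 67 in none.

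Depletion was the common outcome, and it was not confined to the members. In JMC207 90.0% of the members were depleted, with 81.2% of sense transposon, 74.8% of antisense repeat region and 37.2% of piRNA features. In JMC205 the shares were 87.8%, 67.5%, 73.8% and 28.2% in the same order. JMC207 (ALG-4) had 5 enriched and 162 depleted of 180 tested, against 26.1% and 32% of all features, and the median log2 difference was -2.52 for the members and -0.33 for all features. JMC205 (ALG-3) had 6 enriched and 166 depleted of 189 tested, against 22.0% and 28.8% of all features, and the median log2 difference was -2.32 for the members and -0.32 for all features. In JMC207 13 tested members and in JMC205 17 were called in neither direction.

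Most tested members were also depleted in 5 of the 6 CSR-1 strains, from 57.6% in GR3035 to 76.1% in JMC151, with GR3039 the exception at 39.1%. JMC101 (total CSR-1) had 10 enriched and 124 depleted of 182 tested, against 36.1% and 32.2% of all features, and the median log2 difference was -2.27 for the members and 0.15 for all features. JMC164 (CSR-1b) had 9 enriched and 127 depleted of 195 tested, against 27.9% and 27.3% of all features, and the median log2 difference was -2.12 for the members and -0.23 for all features. JMC161 (transgenic CSR-1a) had 16 enriched and 117 depleted of 186 tested, against 34.8% and 26.3% of all features, and the median log2 difference was -1.75 for the members and 0.30 for all features. In each of the 3 the share of members enriched was under the share of all features enriched. Features classed as piRNA were depleted more often than members in JMC101, at 88.3% against 68.1%, and in JMC161, at 93.6% against 62.9%. In JMC164 they were depleted less often, at 57.7% against 65.1%. In JMC151 and GR3035 the piRNA shares were 18.9% and 14.6%. Sense transposon features were depleted at 75.0% in JMC151, close to its members. JMC151 (CSR-1a) had 7 enriched and 105 depleted of 138 tested, against 32.5% and 20.2% of all features, and the median log2 difference was -2.33 for the members and 0.56 for all features. GR3035 (CSR-1a) had 13 enriched and 121 depleted of 210 tested, against 20.9% and 13.3% of all features, and the median log2 difference was -1.22 for the members and 0.08 for all features. In JMC151 no member passed when the filter on low values was dropped, where the smallest adjusted p was 0.0798, and without 1 library 46 to 83 were called depleted. No JMC151 call given below held without that filter.

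The other 3 IPs called fewer members. GR3039 (CSR-1a with G91R) had 5 enriched and 68 depleted of 174 tested, against 12.1% and 9.72% of all features, and the median log2 difference was -0.92 for the members and 0.03 for all features. JMC248 (WAGO-10) had 0 enriched and 66 depleted of 169 tested, against 9.73% and 14.8% of all features, and the median log2 difference was -0.91 for the members and -0.30 for all features. No member was enriched there at an unadjusted p under 0.05 with a log2 difference of at least 1 either, and 70 were depleted on that rule. JMC223 (WAGO-4) had 3 enriched and 15 depleted of 141 tested, against 54.8% and 11.2% of all features, and the median log2 difference was -0.57 for the members and 2.26 for all features. The members' median therefore lay further below the median of all features in JMC223 than in JMC248, by 2.83 against 0.61 on the log2 scale, although few JMC223 members were called. The count of depleted members in JMC223 was 27 without replicate 1 of its inputs, and in GR3039 it was 43 without replicate 1 of its inputs.

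**Figure D2:**
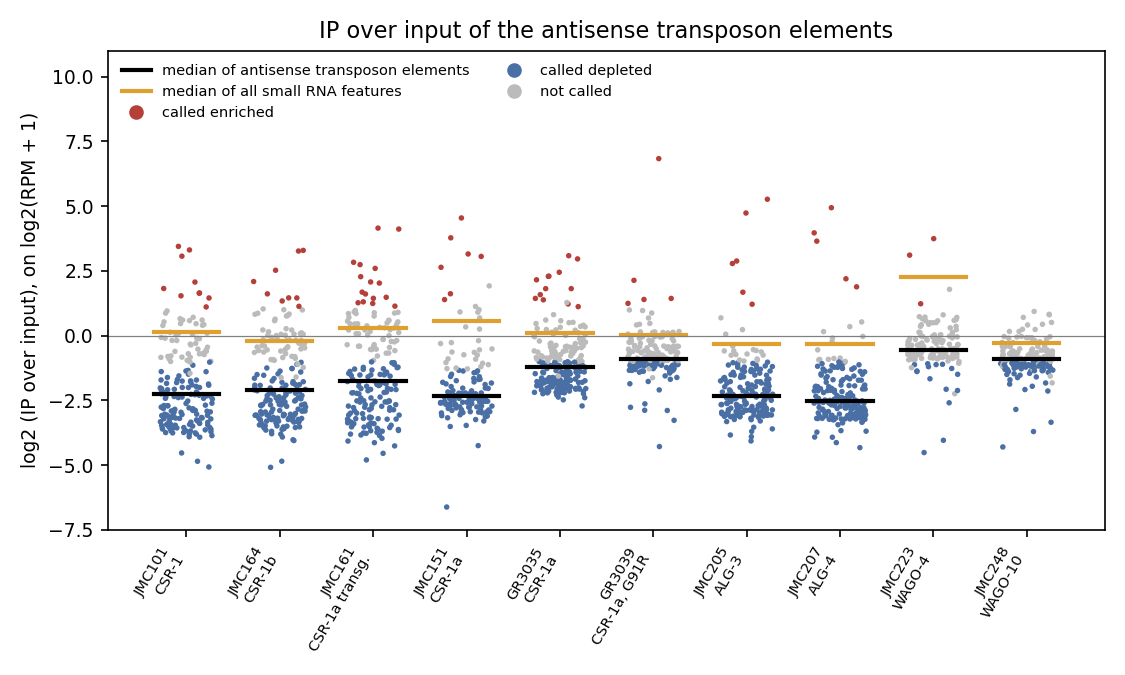
Log2 difference of IP over input for each tested member (dots, y axis) in the 10 strains (x axis), red where called enriched, blue where called depleted and grey otherwise. Black bars are member medians, from -2.52 in JMC207 to -0.57 in JMC223, and orange bars the medians of all features, which lie above them in every strain.

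Each library was scaled to its total, and median-ratio factors, which set the typical feature level instead, moved the median of all features. With them this median became 0.63 in JMC101, 0.27 in JMC151, -0.04 in JMC164, 0.00 in JMC205, 0.09 in JMC207, 2.57 in JMC223, -0.17 in JMC248, -0.08 in GR3035, -0.10 in GR3039 and 0.24 in JMC161. In JMC223, where the depleted share of calls shifted by over 10 percentage points, 3 enriched and 8 depleted members were then called. JMC101 had 19 enriched and 111 depleted, and depleted members outnumbered enriched ones in all 10 strains under either scaling. Over the 10 IPs, 178 of the 218 members tested in at least 1 IP, or 81.7%, were depleted in at least 1, against 36.4% of all features tested in at least 1 IP. Members depleted in at least 8 IPs were 64, or 29.4%, against 4.16% of all features. The 6 members depleted in all 10, or 2.75% against 0.354% of all features, were LONGPAL2, MARINCE1, Tc2, WBTransposon00000728, WBTransposon00000751 and WBTransposon00000752. A smaller set of 32 members, or 14.7%, was enriched in at least 1 IP, against 42.4% of all features. Of the 32, 17 were depleted in another IP, which is 7.80% of the tested members against 10.3% of all features. Another 25 tested members, or 11.5%, were called in neither direction anywhere, against 31.5% of all features.

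The abundant elements followed the general pattern. Tc1, a cut-and-paste DNA transposon, had 163 and 175 RPM in the JMC161 IPs, against 2371 and 2498 RPM in the JMC161 inputs. In total CSR-1 it had 144 and 223 RPM in the JMC101 IPs, against 2170.3 and 2073 RPM in the JMC101 inputs. In WAGO-4 it had 1174 and 1086 RPM in the JMC223 IPs, against 1824 and 1615 RPM in the JMC223 inputs. The IPs lay below the inputs in each of these strains, but by very different amounts. The log2 difference of Tc1 was -3.84 ± 0.14 (SE, adjusted p = 1.29e-06) in JMC161 and -3.55 ± 0.26 (SE, adjusted p = 5.63e-05) in JMC101. It was -2.96 in JMC151, -3.19 in JMC164, -3.12 in JMC205 and -3.20 in JMC207, all called, and -2.0 in GR3035, also called. In GR3039 the value was -1.11, called but at -0.92 without replicate 1 of its IPs. WAGO-10 and WAGO-4 gave -0.91 and -0.60, neither past the threshold of 1.

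Tc3 and Tc5 were close to Tc1. Tc3 ran from -3.78 in JMC161 and -3.76 in JMC101 to -0.93 in JMC248, and Tc5 from -3.35 in JMC207 and -3.33 in JMC101 to -0.73 in JMC223. The most abundant copy, WBTransposon00000216, had 360.0 and 506 RPM in the JMC101 IPs, against 4706 and 4465 RPM in the JMC101 inputs, a difference of -3.42 ± 0.27 (SE, adjusted p = 8.10e-05). WBTransposon00000708, WBTransposon00000275, WBTransposon00000618, WBTransposon00000639 and WBTransposon00000648 were depleted in every strain but JMC223, with the exception of WBTransposon00000275 in JMC248 at -0.91. Without 1 library, WBTransposon00000708, WBTransposon00000618 and WBTransposon00000639 lost their call in JMC151, and WBTransposon00000216, WBTransposon00000708 and WBTransposon00000639 lost theirs in JMC248. In JMC223 these 6 copies lay between -0.90 and -0.52. BEL-like was the exception among the 10 most abundant elements.

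BEL-like is named for the BEL clade of LTR retrotransposons, whose members encode a reverse transcriptase. It had 9447 and 7068 RPM in the JMC151 IPs, against 1009 and 1708 RPM in the JMC151 inputs. In GR3035, whose genotype lists no change in csr-1, it had 2700.2 and 3159 RPM in the IPs, against 569 and 622 RPM in the inputs. Both IPs lay above both inputs in each strain, by 2.64 ± 0.59 (SE, adjusted p = 0.000135) and 2.29 ± 0.24 (SE, adjusted p = 0.000248). One element alone thus made up 43.8 and 41.7% of the antisense transposon reads in the JMC151 IPs, and 15.6 and 14.1% in those of GR3035. In JMC151 the call needed the low-value filter, with an adjusted p of 0.086 without it.

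In the other strains BEL-like was depleted or not called. In GR3039 it had 1334 and 1113 RPM in the IPs, against 945 and 888 RPM in the inputs, a difference of 0.41 that did not pass. JMC161 had 508 and 426 RPM in the IPs, against 510.2 and 516 RPM in the inputs, and JMC248 1199 and 881 RPM in the IPs, against 1320.2 and 894 RPM in the inputs. In JMC161 both IPs lay just below both inputs, and in JMC248 the groups overlapped, with differences of -0.14 and -0.08, neither called. In JMC164 it had 90.2 and 37.2 RPM in the IPs, against 1472 and 626 RPM in the inputs. The JMC101 IPs held 108 and 86.1 RPM, against 1051 and 615 RPM in the inputs. All IPs lay below all inputs in both strains, with differences of -4.02 ± 0.50 (SE, adjusted p = 0.000281) and -3.05 ± 0.29 (SE, adjusted p = 0.000170). For ALG-3 and ALG-4 the differences were -3.70 and -4.13, both called. For WAGO-4 it had 142 and 134 RPM in the JMC223 IPs, against 7636 and 685 RPM in the JMC223 inputs, a called difference of -4.04 that was -2.31 without replicate 1 of the inputs and -5.78 without replicate 2.

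Further elements shared this pattern of JMC151 and GR3035, which the transgenic CSR-1a of JMC161 did not show for BEL-like. HELICOPY3, a Helitron by its name, had 669 and 554 RPM in the JMC151 IPs, against 65.6 and 28.8 RPM in the JMC151 inputs. In GR3035 it had 452 and 463 RPM in the IPs, against 54.1 and 61.8 RPM in the inputs. Every IP value lay above every input value in these strains, by 3.78 ± 0.59 (SE, adjusted p = 3.45e-07) and 2.96 ± 0.15 (SE, adjusted p = 2.03e-05). In GR3039 it had 95.6 and 78.6 RPM in the IPs, against 40 and 32.4 RPM in the inputs, a called difference of 1.24. ALG-3 and ALG-4 depleted it, at -2.26 and -2.53, and it was not called in the other 5 strains, where it lay between -0.65 and 0.49.

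The copy WBTransposon00000712 had the largest JMC151 difference among members called enriched there. It had 533 and 789 RPM in the JMC151 IPs, against 29.2 and 24.7 RPM in the JMC151 inputs. In GR3035 it had 159.8 and 269.8 RPM in the IPs, against 33.3 and 41.8 RPM in the inputs. The IPs lay above the inputs by 4.54 ± 0.59 (SE, adjusted p = 2.41e-09) and 2.45 ± 0.26 (SE, adjusted p = 0.000269). In JMC164, the CSR-1b strain, it had 1.68 and 0.584 RPM in the IPs, against 21.9 and 22.4 RPM in the inputs, so that the order was turned round there, with -3.49 ± 0.35 (SE, adjusted p = 7.60e-05). JMC101, JMC205 and JMC207 gave -2.42, -2.61 and -3.18, all depleted.

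A low-abundance copy, WBTransposon00000703, had the largest difference of any member called enriched in GR3035, at 3.08, and was also enriched in JMC151, GR3039 and JMC161, at 3.06, 2.13 and 1.61. Its levels were 32.3 and 28.7 RPM in the GR3035 IPs, against 4.27 and 1.61 RPM in the GR3035 inputs. In JMC161 the call was lost with a pseudocount of 5 RPM, where the difference was 0.90, and in 2 of 4 fits without 1 library. The full lists of enriched members were short. JMC151 had Tc4, Tc7 and WBTransposon00000132 beside the 4 above, and GR3035 had the same 4 with Tc7, CER1, WBTransposon00000132 and 6 further copies.

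A different set was enriched with total CSR-1, with CSR-1b and with the transgenic CSR-1a. CER1, an LTR retrotransposon known for its activity in the worm germline, had 538 and 472 RPM in the JMC161 IPs, against 27.6 and 27.2 RPM in the JMC161 inputs. In JMC101 it had 451 and 378 RPM in the IPs, against 36.4 and 45.8 RPM in the inputs. In JMC164 it had 425 and 387 RPM in the IPs, against 36.5 and 45.1 RPM in the inputs. All IP values exceeded all input values by a wide margin, at 4.15 ± 0.14 (SE, adjusted p = 1.29e-06), 3.31 ± 0.19 (SE, adjusted p = 3.39e-05) and 3.29 ± 0.21 (SE, adjusted p = 2.67e-05). CER1 was also enriched with WAGO-4, with 181 and 192 RPM in the JMC223 IPs, against 15.5 and 27.7 RPM in the JMC223 inputs and a difference of 3.11 ± 0.30 (SE, adjusted p = 0.000458).

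In the CSR-1a strains other than the transgenic JMC161 the CER1 differences were smaller. It had 69.1 and 64.6 RPM in the GR3035 IPs, against 28.04 and 28.1 RPM in the GR3035 inputs, a called difference of 1.22 that was 0.95 with median-ratio factors, which ends the call. JMC151 had 57.5 and 42.9 RPM in the IPs, against 28.4 and 17.4 RPM in the inputs, a difference of 1.12 ± 0.58 (SE, adjusted p = 0.0939) that passed only with the replicate number as a block, at an adjusted p of 0.0155. In GR3039, JMC205, JMC207 and JMC248 CER1 was not called, at 0.68, 0.69, 0.53 and 0.24. With median-ratio factors the differences were 1.16 in JMC205 and 1.15 in JMC207, both called.

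TC5A, a repeat named for the Tc5 family, was enriched in JMC101, JMC164 and JMC161 and in no other strain. It had 272 and 335 RPM in the JMC161 IPs, against 17.2 and 15.8 RPM in the JMC161 inputs. In JMC101 it had 613 and 259 RPM in the IPs, against 40.8 and 31.2 RPM in the inputs, and in JMC164 500.2 and 294 RPM in the IPs, against 40.5 and 37.6 RPM in the inputs. The IPs were higher by 4.11 ± 0.16 (SE, adjusted p = 1.29e-06), 3.44 ± 0.40 (SE, adjusted p = 0.000445) and 3.27 ± 0.28 (SE, adjusted p = 3.63e-05). In the other 7 strains TC5A lay between -0.22 and 0.62. Tc5 itself was depleted in the same 3 strains, at -3.22, -3.33 and -3.24.

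PALTA3_CE, a palindromic repeat by its name, had 620.1 and 969 RPM in the JMC161 IPs, against 118 and 138 RPM in the JMC161 inputs. Its difference was 2.59 there, 2.07 in JMC101, 2.09 in JMC164 and 1.23 in JMC223, all enriched. ALG-3 and ALG-4 gave -1.78 and -2.04, both depleted. PALNN1_CE, CELE45 and TIR43YW1_CE were on the enriched lists of JMC101, JMC164 and JMC161 as well. Summed over the 36 members with palindrome or inverted repeat names, the log2 ratio of mean IP to mean input was 0.47 in JMC161, -0.64 in JMC101 and -0.46 in JMC164, and with median-ratio factors it was 0.37, 0.16 and -0.04 in the same strains, so that the sign in JMC101 depends on the scaling. The sum in JMC161 was 1358 RPM in the IPs, against 978 RPM in the inputs, and PALTA3_CE alone held 794 and 128 RPM of these. The median log2 difference of the tested members of this group in JMC161 was -0.19. The summed ratio was -2.11 in JMC151, -2.78 in JMC205 and -2.86 in JMC207. Of those tested, 4 of 27 were enriched and 8 depleted in JMC161, and 0 of 28 enriched and 23 depleted in JMC205.

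The groups by name also differed between the IPs. LINE elements, which copy themselves through RNA and lack long terminal repeats, had summed log2 ratios of -3.73 in JMC161 and -3.62 in JMC101, and -0.66 in JMC223. The 18 members with Tc names had -3.12 in JMC207, -3.10 in JMC161 and -0.83 in JMC223. The 3 LTR retrotransposons, BEL-like, CER1 and CER6, ran from 2.39 in JMC151 and 1.78 in GR3035 to -2.80 in JMC205 and -3.14 in JMC223. BEL-like held nearly all of the summed 8395 RPM in the JMC151 IPs, where 1 of the 3 was enriched and 1 depleted. These sums therefore describe BEL-like and not the group. Copies with a WBTransposon ID ran from -3.34 in JMC101 to -0.73 in JMC223. With median-ratio factors none of these ratios changed sign. These are ratios of sums, with no test.

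**Figure D3:**
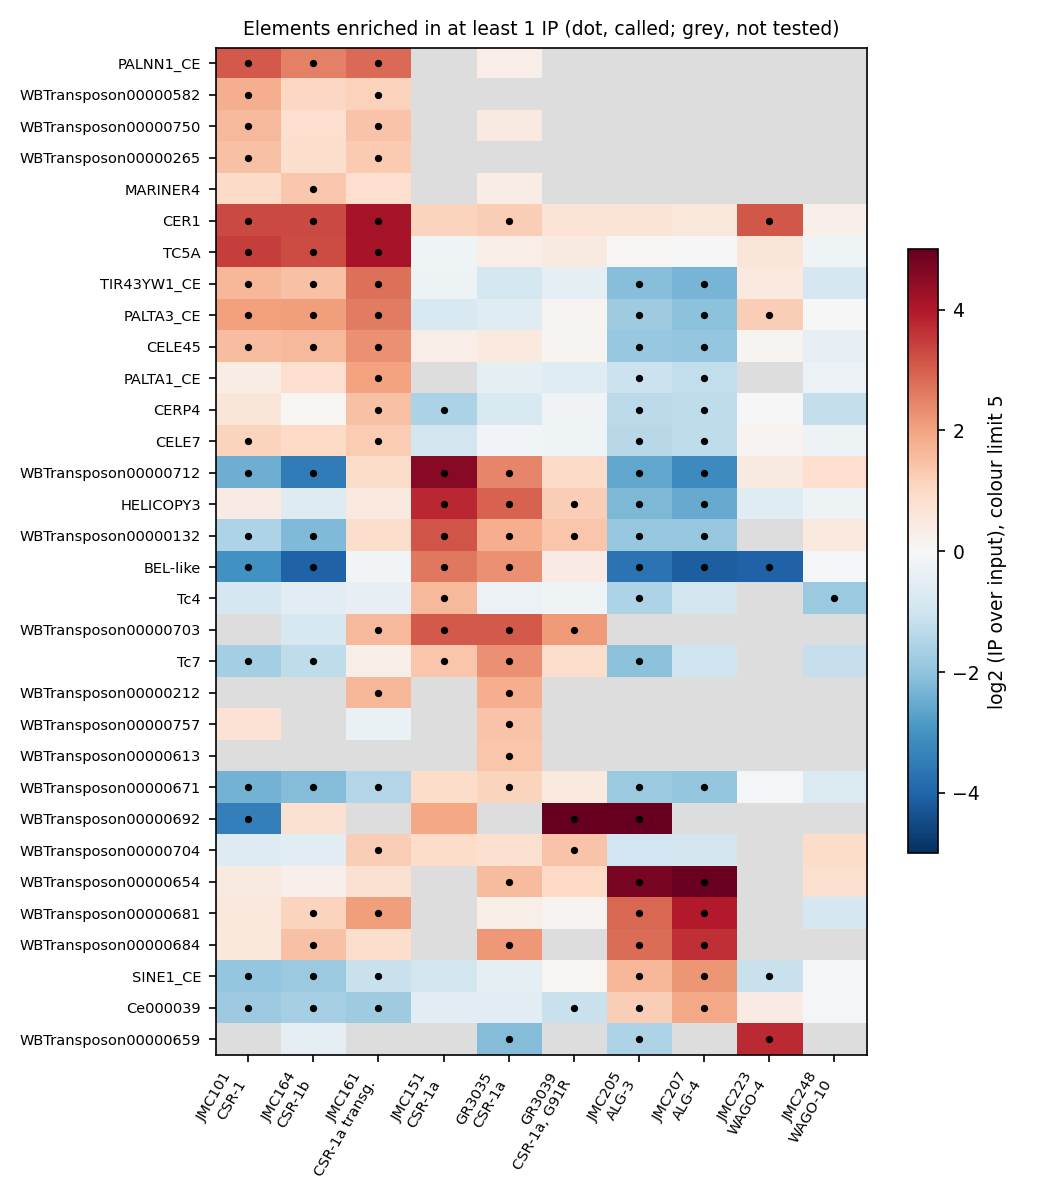
Log2 difference of IP over input (colour, limited at 5 either way) for the 32 members called enriched in at least 1 IP (rows) in the 10 IPs (columns), with a dot where the member passed the test in either direction and grey where it was not tested. CER1 and TC5A are red in JMC101, JMC164 and JMC161, and CER1 also in JMC223 and, more palely, in GR3035. BEL-like is red in JMC151 and GR3035 and blue in JMC101, JMC164, JMC205, JMC207 and JMC223.

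ALG-3 and ALG-4 shared a small enriched set. WBTransposon00000654 had 52.8 and 56.6 RPM in the JMC205 IPs, against 0.967 and 1.23 RPM in the JMC205 inputs. In JMC207 it had 146 and 131 RPM in the IPs, against 8.28 and 1.21 RPM in the inputs. The IPs lay far above the inputs in both, by 4.73 ± 0.12 (SE, adjusted p = 2.75e-09) and 4.94 ± 0.59 (SE, adjusted p = 0.000226). GR3035 gave 14.6 and 14.9 RPM in the IPs, against 5.64 and 3.19 RPM in the inputs, a called difference of 1.58. WBTransposon00000654 was listed at 0 in 1 of the 40 libraries, an input. In JMC205 replicate 1 of the inputs held fewer reads than the filter asks. The copy could pass the read filter there only with the help of an IP, so the filter leaned toward a call of enrichment. In JMC207 both inputs had enough reads.

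The copy WBTransposon00000681 had 41.03 and 50.4 RPM in the JMC207 IPs, against 1.35 and 2.76 RPM in the JMC207 inputs. In JMC205 it had 17.5 and 18.5 RPM in the IPs, against 1.69 and 1.48 RPM in the inputs, and the differences were 3.97 and 2.88. WBTransposon00000684 had 28.01 and 22.5 RPM in the JMC207 IPs, against 1.58 and 0.679 RPM in the JMC207 inputs. In JMC205 it had 8.99 and 10.7 RPM in the IPs, against 0.425 and 0.726 RPM in the inputs, with differences of 3.65 and 2.78. All 4 differences were called. For WBTransposon00000684 in both strains and WBTransposon00000681 in JMC207, 1 input held fewer reads than the filter asks. These could pass the read filter only with the help of an IP, so the filter leaned toward calls of enrichment. WBTransposon00000681 in JMC205 had enough reads in both inputs. Both copies were also called in JMC164, at 1.13 and 1.45, but each of these calls was lost with a pseudocount of 5 RPM and in 2 of 4 fits without 1 library. WBTransposon00000681 was enriched in JMC161 at 2.07, and WBTransposon00000684 in GR3035 at 2.15.

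SINE1_CE, a SINE by its name, and Ce000039 completed the ALG-4 list. SINE1_CE had 105 and 97.2 RPM in the JMC207 IPs, against 23.4 and 19.3 RPM in the JMC207 inputs, and 58.97 and 60.6 RPM in the JMC205 IPs, against 18.3 and 17.8 RPM in the JMC205 inputs. The differences were 2.19 and 1.67, both called. Ce000039 had 1.88 in JMC207 and 1.21 in JMC205, and was depleted in JMC101, JMC164, JMC161 and GR3039, at -1.82, -1.66, -1.76 and -1.11.

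WBTransposon00000692 was erratic and is reported by its values. It was listed at 0 in 21 of 40 libraries, 7 IPs and 14 inputs, and lay between 19.8 and 325 RPM in the rest. It had 38.4 and 36.5 RPM in the JMC205 IPs, against 0 and 0 RPM in the JMC205 inputs. In GR3039 it had 115 and 111 RPM in the IPs, against 0 and 0 RPM in the inputs. Both were called enriched, with no fold since the inputs were listed at 0, whereas in JMC101 it had 19.8 and 27.98 RPM in the IPs, against 285 and 244 RPM in the inputs and was called depleted. In JMC205 and GR3039 it could pass the read filter only through the IPs, so the direction of both calls was fixed. The tables give no cause for the zeros, and none was tested.

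WAGO-4 enriched 3 members. Beside CER1 and PALTA3_CE, WBTransposon00000659 had 11.2 and 13.7 RPM in the JMC223 IPs, against 0 and 0 RPM in the JMC223 inputs, with no fold against inputs listed at 0. This copy was listed at 0 in 24 of the 40 libraries. With both JMC223 inputs at 0 it could pass the read filter only through the IPs, so the direction of its call was fixed. In replicate 2 of these inputs 1 read was worth 3.07 RPM. The strongest depletion with WAGO-4 was Tc3-CeIIb, a Tc3-like element by its name, with 11.6 and 21.6 RPM in the JMC223 IPs, against 392 and 378 RPM in the JMC223 inputs and a difference of -4.52 ± 0.30 (SE, adjusted p = 0.000152). Tc3 in the same libraries had 1122 and 1329.5 RPM in the JMC223 IPs, against 2479.6 and 2339 RPM in the JMC223 inputs, a difference of -0.98 that was not called. Tc3-CeIIb was also depleted in JMC101, JMC161 and JMC164, at -4.53, -4.26 and -3.70, and it was not called with WAGO-10, at -0.43.

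The lowest difference in JMC151 was that of WBTransposon00000730, with 0 and 0 RPM in the JMC151 IPs, against 122 and 77.9 RPM in the JMC151 inputs. No fold is given against IPs listed at 0, and the copy could pass the read filter there only through the inputs. The copy varied widely between inputs of 1 strain. In JMC101 it had 8.07 and 16.03 RPM in the IPs, against 0 and 61.5 RPM in the inputs, and its difference was not called and changed sign with the input left out. It was also the lowest in JMC207 and JMC248, at -4.33 and -4.30, with 0 and 0.111 RPM in the JMC248 IPs, against 15.4 and 25.3 RPM in the JMC248 inputs. Other lowest values were -5.07 for WBTransposon00000208 in JMC101, -5.09 for WBTransposon00000670 in JMC164 and -4.07 for WBTransposon00000679 in JMC205. WBTransposon00000679 had -2.72 in GR3035. WBTransposon00000599 had -4.80 in JMC161 and -4.29 in GR3039. All of these were called depleted.

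**Figure D4:**
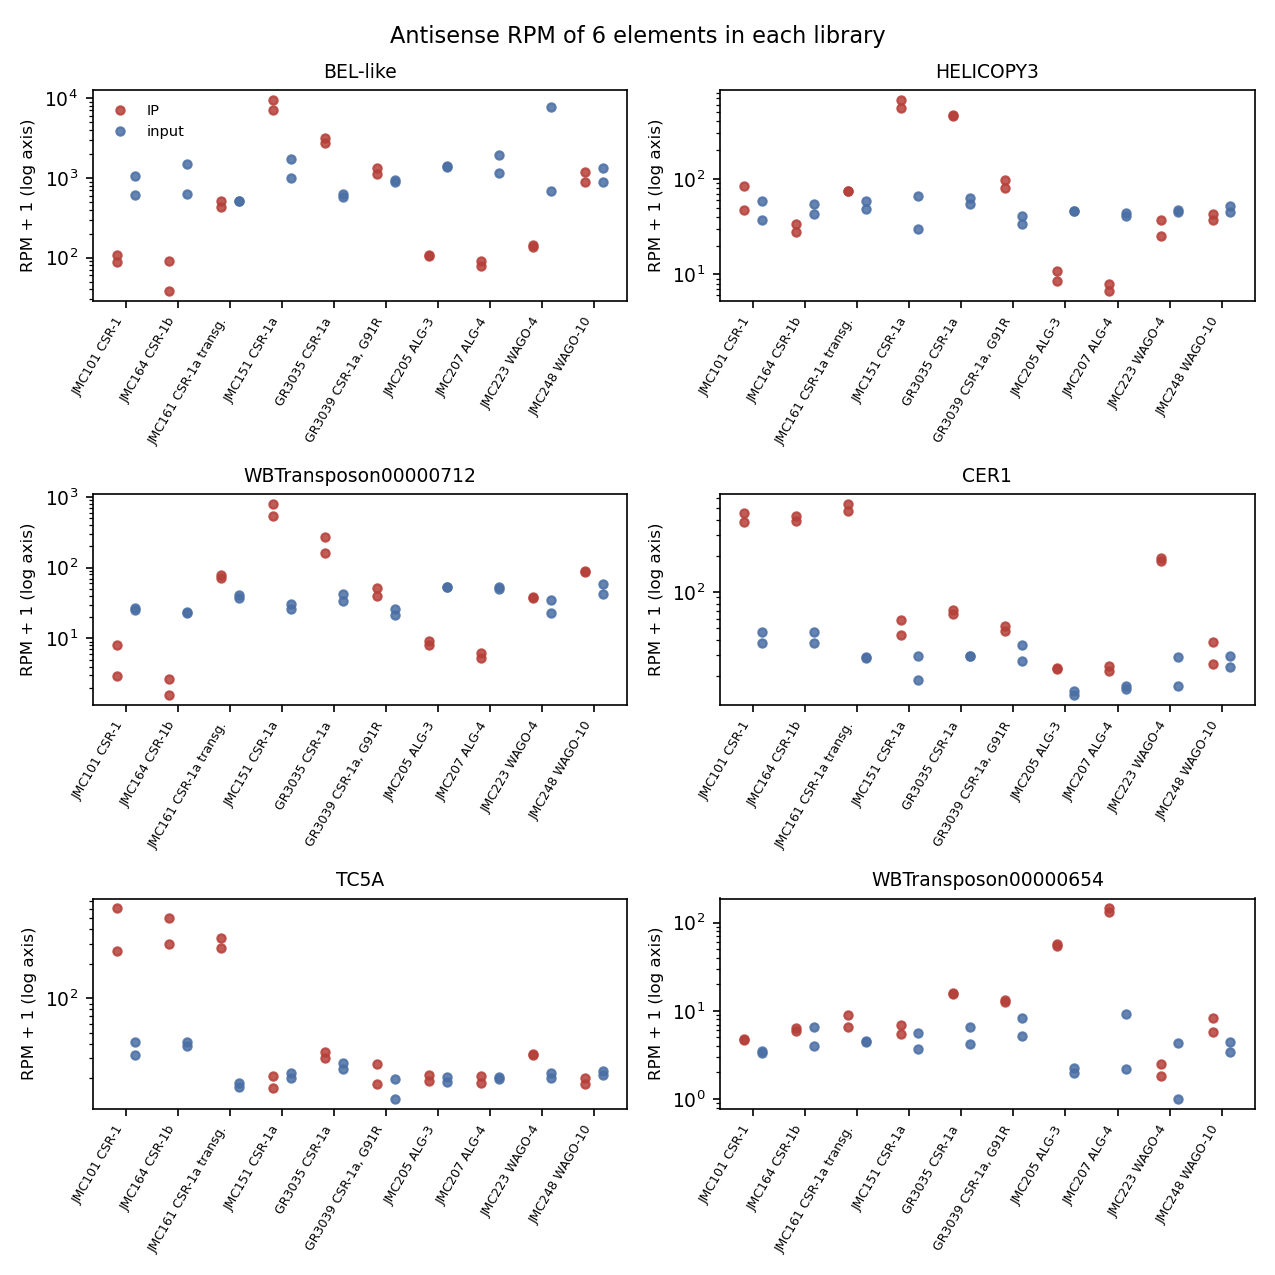
RPM + 1 (log axis) of 6 elements in every library of the 10 strains, IPs left and inputs right of each strain. The largest differences are in JMC151 and GR3035 for BEL-like, HELICOPY3 and WBTransposon00000712, and in JMC101, JMC164 and JMC161 for CER1 and TC5A. For WBTransposon00000654 they are in JMC205 and JMC207. IPs lie above inputs in further strains, such as CER1 in JMC223, GR3035 and JMC151 and HELICOPY3 in GR3039.

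Across elements, some IPs were more alike than others. Pearson's r of the log2 differences was 0.94 between JMC101 and JMC164 over 180 members tested in both, 0.93 between JMC205 and JMC207 over 178, and 0.87 between JMC151 and GR3035 over 137. JMC161 had r = 0.89 with JMC101 over 178 members and 0.89 with JMC164 over 179, against 0.65 with JMC151 over 135 and 0.72 with GR3035 over 182. By ranks the order changed in part. Spearman's rho was 0.92 between JMC101 and JMC164, 0.85 between JMC205 and JMC207, and 0.77 between JMC151 and GR3035. JMC161 had 0.88 with JMC101, 0.85 with JMC164, 0.80 with GR3035 and 0.71 with JMC151. By rank GR3035 was thus nearer to JMC161 than to JMC151. The lowest r was 0.14, between JMC223 and JMC248 over 138. These are descriptions over elements, which share libraries and in part sequence and are not independent.

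Differences between strains in the IP over input value were tested directly, as an interaction in a joint fit of 8 libraries. CSR-1a in JMC151 against CSR-1b in JMC164 gave 25 of 197 members, 12 higher and 13 lower in JMC151, against 8.89% of all features higher and 13.4% lower. WBTransposon00000712 differed most, by 8.03 ± 0.54 (SE, adjusted p = 1.01e-05), then BEL-like, by 6.66 ± 0.84 (SE, adjusted p = 0.000378). HELICOPY3 differed by 4.43. Among those lower in JMC151 were WBTransposon00000730 at -5.0 ± 0.83 (SE, adjusted p = 0.00232), TC5A at -3.46 ± 0.53 (SE, adjusted p = 0.00135), PALTA3_CE at -2.84 and CER1 at -2.17. With median-ratio factors the split was 12 higher and 20 lower. The count ran from 12 to 35 without 1 library, the lowest without replicate 2 of the JMC164 IPs and the highest without replicate 2 of the JMC151 inputs, and was 39 with the replicate block. The 4 elements with full errors stayed called in all 8 fits without 1 library. The value of WBTransposon00000730 rests on JMC151 IPs listed at 0 and depends on the pseudocount, here and in the comparison with JMC161.

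WAGO-4 in JMC223 against CSR-1b in JMC164 gave 92 of 197 members, 91 higher and 1 lower in JMC223, against 15.5% of all features higher and 3.43% lower. The members' median of this difference was 1.55, and that of all features 0.52. The abundant elements were among those higher, with Tc1 at 2.58 ± 0.22 (SE, adjusted p = 0.000320), Tc3 at 2.57 and Tc5 at 2.51, and all of these were depleted in JMC164 and not called in JMC223. TC5A was the 1 that was lower, at -2.65 ± 0.38 (SE, adjusted p = 0.00195). CER1 and BEL-like did not pass, at -0.18 and -0.02. The highest were WBTransposon00000670 at 5.66 ± 1.68 (SE, adjusted p = 0.0453), which was lost in 6 of 8 fits without 1 library, and WBTransposon00000659 at 4.17 ± 0.78 (SE, adjusted p = 0.00672), whose JMC223 inputs were listed at 0, so that its value depends on the pseudocount.

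ALG-3 in JMC205 against ALG-4 in JMC207 gave 0 of 197 members with limma, where the smallest adjusted p was 0.0916 and 20 members had an unadjusted p under 0.05. Of all features 0.00% were higher and 0.0364% lower. With a pseudocount of 5 RPM 3 members passed, and without 1 library 0 to 5, the 5 without replicate 1 of the JMC207 inputs. A test that misses the threshold does not show that the proteins bind alike.

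The transgenic CSR-1a of JMC161 against JMC151 gave 36 of 191 members, 26 higher and 10 lower in JMC161, against 19.2% of all features higher and 10.3% lower. JMC161 has the rpl-28 promoter, a transgene tagged with gfp, csr-1(tm892) and unc-119(ed3), whereas JMC151 has gfp::3xflag in csr-1 itself, and these differences cannot be told apart. TC5A was 4.31 ± 0.46 (SE, adjusted p = 0.00136), WBTransposon00000730 3.81 ± 0.70 (SE, adjusted p = 0.00304), PALTA3_CE 3.35 and CER1 3.03, all higher in JMC161. WBTransposon00000712 had -3.63 ± 0.46 (SE, adjusted p = 0.00136), HELICOPY3 -3.29 ± 0.56 (SE, adjusted p = 0.00231) and BEL-like -2.78. The split was 28 and 17 with median-ratio factors. The count was 56 with the replicate block, 17 without replicate 2 of the JMC161 inputs and 56 without replicate 1 of the JMC151 inputs. TC5A, WBTransposon00000730, WBTransposon00000712 and HELICOPY3 stayed called in all 8 such fits.

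For the G91R change, GR3039 against GR3035 gave 2 of 212 members, both lower in GR3039. This is 0.943% of the members, close to the 0.962% of all features called lower, and 0.287% of all features were higher. The count is therefore no trait of the members. BEL-like differed by -1.88 ± 0.30 (SE, adjusted p = 0.0274) and HELICOPY3 by -1.72 ± 0.25 (SE, adjusted p = 0.0186). The calls were lost in 7 and 6 of the 8 fits without 1 library, and the count ran from 0 to 26, the highest without replicate 1 of the GR3039 IPs. At an unadjusted p under 0.05 there were 88 members. The count of calls was 36 with median-ratio factors, 32 higher and 4 lower, and 17 with the replicate block, 11 higher and 6 lower. The share of all features was not taken for the 88, 36 and 17, so they are not read as a trait of the members. The members' median difference was 0.54 and that of all features -0.16, and Tc1, Tc3 and Tc5 lay at 0.89, 0.88 and 0.84, none called. The labels list the mgIs75 and mgTi14 transgenes for GR3035 and not for GR3039. Where GR3039 lacks them, their part and that of the G91R change cannot be told apart.

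The inputs of GR3039 and GR3035 differed in 6 of 203 members, 2 higher and 4 lower in GR3039. These are 0.985% and 1.97% of the members, against 10.5% of all features higher and 2.10% lower, so the share lower was close to that of all features. In whole worms, fewer cells that make an RNA and less RNA per cell cannot be told apart. MIRAGE1, a Mirage element by its name, had 273 and 238 RPM in GR3039 inputs, against 657 and 666 RPM in GR3035 inputs, a log2 difference of -1.37 ± 0.15 (SE, n = 2 each, adjusted p = 0.000867). WBTransposon00000207, WBTransposon00000704 and WBTransposon00000726 were the other members that were lower, and Ce000039 at 1.17 ± 0.19 (SE, adjusted p = 0.00390) and WBTransposon00000583 were higher. WBTransposon00000583 had 4.56 and 39.3 RPM in GR3039 inputs, against 0 and 0 RPM in GR3035 inputs. It could pass the read filter only through the GR3039 inputs, so the direction of its call was fixed. Without 1 library Ce000039 and WBTransposon00000207 each lost the call once. With median-ratio factors 1 was higher and 15 lower.

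The JMC161 inputs stood apart from the other inputs in the elements that make up the class. Of 223 members with enough reads, 47, or 21.1%, were lower in both JMC161 inputs than in all 18 inputs of the other strains, against 3.63% of 26142 features. In the other 9 strains 0 to 6 members lay below all other inputs. Higher than all 18 were 9 members, or 4.04%, close to the 3.45% of features. In the other 9 strains 0 to 12 members lay above all other inputs, the 12 in GR3035. The 9 are therefore described by their values and not read as a trait of the class. The tables were scaled separately, and with median-ratio factors 29 members lay below, where the share of all features was not taken. The count was 47 without replicate 1 and 66 without replicate 2 of the JMC161 inputs, and 47 with a minimum of 30 reads.

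Of the 47, 28 had a WBTransposon ID, and of the 9 none had. The mean of the JMC161 inputs was 0.00797 to 0.760 of the median of the other inputs, with a median of 0.405, and 34 of the 47 were at 0.5 or less. Among the 10 most abundant elements, WBTransposon00000618 had 812 and 1075 RPM in the JMC161 inputs, against a median of 2211 RPM and a range of 1628 to 3966 RPM in the other inputs. WBTransposon00000639 had 567 and 744 RPM in the JMC161 inputs, against a median of 1469 RPM and a range of 1218 to 2586 RPM in the other inputs, and BEL-like had 510.2 and 516 RPM in the JMC161 inputs, against a median of 1030.1 RPM and a range of 569 to 7636 RPM in the other inputs. Tc1 went the other way, with 2371 and 2498 RPM in the JMC161 inputs, against a median of 2074 RPM and a range of 1345 to 2300.3 RPM in the other inputs. Of the other members above, CEMUDR2, a MuDR element by its name and chosen after its values were seen, had 1081 and 1014 RPM in the JMC161 inputs, against a median of 146 RPM and a range of 72.9 to 210.0 RPM in the other inputs. MIRAGE1 had 709 and 773 RPM in the JMC161 inputs, against a median of 331 RPM and a range of 192 to 666 RPM in the other inputs.

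The sum of the 47 was 5324 and 7015 RPM in the JMC161 inputs, against 12174 to 23220 RPM in the other 18. The sum of the 9 was 8803 and 9456 RPM in the JMC161 inputs, against 3871 to 6526 RPM. The choice of the members fixes the direction of both sums, which are given as a description. The antisense transposon share was 3.91 and 4.55% in the JMC161 inputs, a mean of 4.23%, against means of 4.58 to 5.53% in the inputs of the other 9 strains. No test across strains was made, and strain, table and library batch cannot be told apart.

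**Figure D5:**
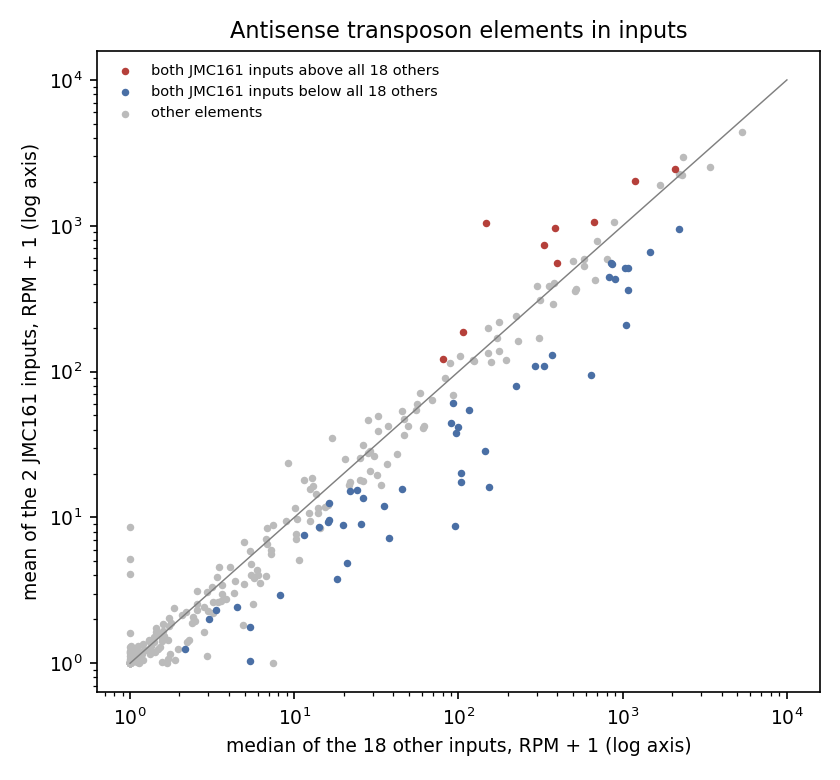
Mean of the 2 JMC161 inputs (y axis) against the median of the other 18 inputs (x axis) for each of 285 members. Both are RPM + 1 on log axes, with members that are not listed set to 0 RPM. Colours mark those of the 223 members with enough reads where both JMC161 inputs lie below or above all 18. The 47 members below fall under the diagonal, and CEMUDR2 and MIRAGE1 are among the 9 above it.

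Reads on the sense strand of transposons, in 237 features, gave a further measure. The ratio of summed antisense to summed sense reads was 12.7 ± 2.43 in the IPs and 33.7 ± 3.09 in the inputs of JMC101 (SD, n = 2 each). It was 12.2 ± 1.15 in the IPs and 35.3 ± 0.0579 in the inputs of JMC164 and 10.4 ± 0.915 in the IPs and 35.4 ± 2.46 in the inputs of JMC161. In JMC151 it was 43.5 ± 1.67 in the IPs and 35.8 ± 0.0487 in the inputs, and in JMC205 31.6 ± 1.12 in the IPs and 37.4 ± 0.266 in the inputs. The mean ratio was also lower in the IPs of JMC223, at 23.7 against 34.8 in the inputs, and of GR3039, at 26.5 against 33.0. It was 29.4 against 37.5 in JMC207, 33.7 against 42.7 in GR3035 and 34.2 against 36.6 in JMC248. The 3 strains that enriched CER1 and TC5A most had the lowest IP ratios, and a link was not tested. TC5A itself stayed antisense, with sense values of 4.41 and 2.91 RPM in the JMC101 IPs, against 2.34 and 3.44 RPM in the inputs. For CER1 the sense values were 2.01 and 0.443 RPM in the JMC101 IPs, against 2.86 and 0.860 RPM in the inputs. PALTA3_CE differed, with sense values of 111 and 77.7 RPM in the JMC101 IPs, against 27.5 and 35.9 RPM in the inputs. In JMC164 its sense values were 156 and 85.5 RPM in the IPs, against 44.4 and 38.0 RPM in the inputs, and in JMC161 109 and 112 RPM in the IPs, against 40.2 and 43.0 RPM in the inputs. Its sense reads were thus above the inputs in all 6 of these IPs.

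Small RNAs antisense to the genes of the transposon silencing machinery were measured in the same tables. The list held 30 such genes of the mutator, RNA interference and nuclear silencing pathways. In JMC101 28 of 29 tested were enriched, with a list median of 3.05 and 0.15 over all features, and antisense features of protein-coding genes were enriched at 54.5%. JMC164 enriched 28 of 30 and JMC161 28 of 30, where 50.7% and 55.99% of protein-coding antisense features were enriched. JMC223 enriched 29 of 29, with a list median of 4.24, where 68.2% of protein-coding antisense features were enriched. For ego-1, an RNA-dependent RNA polymerase, the log2 difference was 3.29 in JMC101, 4.69 in JMC223 and -1.42 in JMC205. For mut-16, which organises the mutator foci, it was 3.22 in JMC101 and 5.04 in JMC223, and for hrde-1, a nuclear Argonaute, 2.92 and 3.40 in the same strains, all called.

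The spermatogenesis IPs and the CSR-1a IPs other than the transgenic JMC161 enriched few of this list. JMC151 had 2 of 26 and GR3035 3 of 30, with 42.5% and 33.2% of protein-coding antisense features enriched. JMC205 had 3 of 29 enriched and 12 depleted, with a list median of -0.86, and 28.9% of protein-coding antisense features were enriched and 30.95% depleted. JMC207 had 2 of 29 enriched and 11 depleted, with a list median of -0.81, against 33.1% enriched and 33.6% depleted. JMC248 and GR3039 had 0 of 29 and 0 of 30 by limma, and on an unadjusted p under 0.05 with a log2 difference of at least 1 they had 0.0 and 0.0. The list was written with earlier results of these data known, and it is described by its counts and medians, with no test of the list against the members.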

How the data were processed

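Small RNAs were sequenced from 40 libraries of 10 strains, with 2 IP and 2 input libraries each, of 55 samples in the labels. Messenger RNA tables and 3 input samples of a further strain were not analysed here. The values are RPM as the authors deposited them, with 0.01 added to each, and this unit was read from the values. Per the submitters' processing notes the tools include cutadapt and STAR, while the genome build, the annotation, tool versions and the counting of shared reads were not given there. Each table was scaled by itself.

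The members and lists were chosen with earlier results of these data known. The 0.01 was subtracted. In each library the most frequent value above 0 among sense and antisense protein-coding features was taken as 1 read, and each total followed from it. Some member values were smaller than 1 read. Over all features, 74.5 to 87.2% of values of at most 20 reads were whole reads within 0.02, so no count model was used. log2(RPM + 1) was fitted with limma 3.58.1 (R 4.3.3) with a mean-variance trend, on features with at least 10 estimated reads in at least 2 libraries, Benjamini-Hochberg adjusted over all features and called at an adjusted p of 0.05 and a log2 difference of 1.

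The fits carry no block. IP and input libraries share replicate numbers, and the labels say that the inputs are the lysates of the IPs. The correlation of their deviations over all features ran from -0.015 to 0.41. A fit with the replicate number as a block was an alternative. Named elements were the 10 most abundant in the inputs, the 2 highest enriched and the 1 lowest depleted per IP, up to 5 enriched in the most IPs, the 2 highest and 2 lowest per comparison of strains, and WBTransposon00000730. Elements outside this rule are named as members of a full list, or as chosen after their values were seen.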

Additional observations from a re-analysis of the deposited data

Results flagged for a closer look

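The IP over input difference of 13 element and strain pairs differed between strains by a direct test, limma with Benjamini-Hochberg adjustment on 2 IP and 2 input libraries per strain. In JMC151 against JMC164 the differences were 8.03 for WBTransposon00000712, 6.66 for BEL-like, -5.0 for WBTransposon00000730 and -3.46 for TC5A, on the log2 scale.

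JMC223 against JMC164 gave 5.66 for WBTransposon00000670, 4.17 for WBTransposon00000659 and -2.65 for TC5A. In JMC161 against JMC151 the values were 4.31 for TC5A, 3.81 for WBTransposon00000730, -3.63 for WBTransposon00000712 and -3.29 for HELICOPY3. GR3039 against GR3035 gave -1.88 for BEL-like and -1.72 for HELICOPY3, which are 0.943% of the members tested there, close to the 0.962% of all features called lower.

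The JMC151 IPs were listed at 0 for WBTransposon00000730 and the JMC223 inputs for WBTransposon00000659, so these 3 values depend on the pseudocount. Within JMC151 the first had enough reads for the filter in the inputs alone, and within JMC223 the second in the IPs alone. No call was lost without 1 library in 10 of the 13 cases, and the exceptions were WBTransposon00000670, lost in 6 of 8 fits, and BEL-like and HELICOPY3 in GR3039 against GR3035, lost in 7 and 6 of 8.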

How the results depend on the processing

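Of 353 alternatives to a share or count, 290 stayed within the main result and 63 moved. Of 1673 alternatives to a named element value, 1577 kept their direction and side of the threshold, 70 lost the call, 25 gained it and 1 reversed. The reversed value was WBTransposon00000730 in JMC101, 0.65 and not called with all libraries, and -2.33 and called without replicate 1 of the inputs, and 3.64 without replicate 2. The cause of these changes was not tested. Shares of all features were taken for the main results only, so member counts under an alternative are not read as a trait of the members.

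The IP minus input share, in percentage points, was -4.32 in JMC101, -5.13 in JMC205, -5.07 in JMC207 and -3.42 in JMC223 without structural RNA classes. Without reads of no feature it was -4.35 in JMC101, -4.82 in JMC205, -4.67 in JMC207 and -3.92 in GR3035. Leaving out the most abundant element gave -3.54 in JMC101, -3.76 in JMC205, -3.65 in JMC207 and -3.07 in GR3035.

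With a pseudocount of 5 RPM enriched members numbered 6 in JMC101 and 10 in JMC161, depleted members 45 in GR3039, and strain differences 3 for JMC205 against JMC207, 7 for GR3039 against GR3035 and 2 for their inputs. A pseudocount of 0.1 RPM gave 1 enriched in JMC248 and 0 differences for GR3039 against GR3035. No filter gave 0 enriched and 0 depleted by limma in JMC151, where 9 and 125 passed on an unadjusted p under 0.05 with a log2 difference of at least 1. It also gave 0 for GR3039 against GR3035, where 92 had an unadjusted p under 0.05. Median-ratio factors gave 19 enriched in JMC101, 15 in JMC164 and 1 in JMC248, 8 depleted in JMC223, 36 differences for GR3039 against GR3035 and 16 for their inputs, and 29 members below in the JMC161 inputs, a count whose alternatives were chosen after seeing the data. The replicate block gave 39 for JMC151 against JMC164, 17 for GR3039 against GR3035 and 56 for JMC161 against JMC151, and moved no other count by over 1.5 times.

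Without 1 library, enriched members ran from 5 to 10 in JMC101, 4 to 8 in JMC151, 2 to 8 in JMC223, 0 to 3 in JMC248 and 4 to 8 in GR3039. Depleted members ran from 46 to 83 in JMC151, 14 to 27 in JMC223 and 43 to 77 in GR3039. Strain differences ran from 12 to 35 for JMC151 against JMC164, 0 to 5 for JMC205 against JMC207, 0 to 26 for GR3039 against GR3035 and 17 to 56 for JMC161 against JMC151. Where this left a group with 1 library, that library was assumed to vary like the others.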
